A study of Mus musculus with 6 samples.

Results

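The 36 genes described here make cholesterol and fatty acids, control that synthesis, or move sterols out of the cell. They were taken by symbol from a table of 20591 genes, in which all 36 were found, and 34 of them were expressed highly enough to be tested. RNA sequencing was done on B cells that had been sorted from mouse colon, in 2 groups of 3 libraries. The mice of one group had been given lenvatinib, an inhibitor of receptor tyrosine kinases such as the VEGF and FGF receptors. The mice of the other had been given DMSO, the solvent. The labels number the libraries of a group as biological replicates but name no animals, pools, genotype, strain, age, dose or duration. If several libraries shared an animal or a pool, the p-values would cover technical spread only. Values are FPKM (fragments per gene length and library total), scaled slightly between libraries, and values after ± are SDs over n = 3 libraries.

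Cholesterol is built from acetyl-CoA through mevalonate to farnesyl diphosphate, and then through squalene and lanosterol. SREBP2, encoded by Srebf2, and SREBP1, encoded by Srebf1, are membrane-bound transcription factors that switch on the enzymes of sterol and fatty acid synthesis when cell sterols are low. Liver X receptors answer to oxidised sterols and raise the efflux transporters ABCA1 and ABCG1, as well as SREBP1 and the desaturase SCD1. Lymphocytes draw on both routes when they grow, because new membranes need sterols and fatty acids.

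The stearoyl-CoA desaturase genes Scd1 and Scd2 and the efflux transporter genes Abca1 and Abcg1 were lower in lenvatinib B cells, while 5 of 18 enzymes of sterol synthesis were higher and 2 lower. Of the 34 tested genes, 7 were higher and 6 lower at a limma adjusted p below 0.05, which is 38.2 percent, where 18.7 percent of all 9937 tested genes were called. In each direction, 20.6 percent of the tested lipid genes were higher against 10.4 percent of all tested genes, and 17.6 percent were lower against 8.21 percent. The genes were listed with earlier results of these data known, so these shares are a description only. The median log2 change was 0.04 over the lipid genes and 0.01 over all tested genes. The number called higher was 4 without lenvatinib replicate 1, without DMSO replicate 1 or without DMSO replicate 3. All values of the 3 lenvatinib libraries lay above those of DMSO for 8 lipid genes and below them for 10, while over all tested genes 18.9 percent lay above, 18.2 percent lay below and 37.1 percent did not overlap in either direction.

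Library totals, worked out from the FPKM steps, ran from 26635279 to 31655500 reads in genes, and a tested lipid gene had at least 54 reads in every library. Markers of other cells differed too. Higher in lenvatinib libraries were 7 of 9 tested T cell markers, 8 of 8 for NK cells and ILCs (natural killer and innate lymphoid) and 8 of 8 for colon epithelium. Summed marker levels in scaled FPKM were 100 to 105 in lenvatinib and 23.1 to 26.1 in DMSO libraries for T cells. They were 104 to 111 in lenvatinib and 23.8 to 25.6 in DMSO libraries for NK cells and ILCs, and 63.3 to 67.1 against 14.4 to 15.5 for epithelium. For macrophages and dendritic cells 2 of 8 tested markers were higher, with sums of 71.4 to 80.7 in lenvatinib against 60.7 to 63.9 in DMSO libraries. For plasma cells 1 was higher and 1 lower of 7, with sums of 345 to 360 in lenvatinib against 369 to 375 in DMSO libraries. Of the adipocyte markers, 5 were in the table and 0 could be tested, with sums of 1.75 to 2.41 in lenvatinib against 0.375 to 1.05 in DMSO libraries. Fibroblast and smooth muscle markers summed to 4.28 to 4.85 against 2.42 to 3.55, with 1 of 1 tested higher, and endothelial markers to 1.04 to 1.24 against 0.43 to 1.06, with 0 tested. The B cell identity genes were expressed in every library, and 13 of 15 were lower, with sums of 2862 to 2913 in lenvatinib against 3395 to 3444 in DMSO libraries. No marker was at 0 in all 6 libraries, and the epithelial Slc26a3 and the adipocyte marker Pck1 were at 0 in all 3 DMSO libraries. The part of these shifts in the lipid results was not tested. In sorted bulk samples, fewer cells of a type and less RNA per cell cannot be told apart.

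Promoters of some genes are shown first, as the 250 bases before the annotated start of each gene in RefSeq for the build GRCm38.p6. The FPKM table names another build, GRCm39, and no coordinates of that table are used. The windows were found by symbol for 28 of the 36 genes, among them 6 of the 7 called higher and 3 of the 6 called lower. No window was found for Scd1, Scd2, Abcg1 and Fdps, so their promoters were not searched. Hmgcs1 and Idi1 are shown as sterol synthesis genes that were higher, and Abca1, Fasn and Srebf1 because they share an element. Capitals mark CCAAT or its complement ATTGG, the sterol regulatory element TCACNCCAC in Hmgcs1, and, in Abca1, Fasn and Srebf1, a liver X receptor element, GGTTACT and GGTCA with any 3 bases between them, here in its reverse complement. RefSeq gives 3 windows for Srebf1, and the one shown belongs to the start that lies furthest downstream in the gene.
Hmgcs1 (chr13:119690101-119690350, plus strand): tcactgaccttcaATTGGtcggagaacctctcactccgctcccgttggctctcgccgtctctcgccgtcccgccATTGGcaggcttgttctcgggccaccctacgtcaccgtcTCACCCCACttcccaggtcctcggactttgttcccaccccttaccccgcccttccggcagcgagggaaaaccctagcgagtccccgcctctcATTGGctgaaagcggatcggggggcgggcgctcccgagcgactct
Idi1 (chr13:8885356-8885605, plus strand): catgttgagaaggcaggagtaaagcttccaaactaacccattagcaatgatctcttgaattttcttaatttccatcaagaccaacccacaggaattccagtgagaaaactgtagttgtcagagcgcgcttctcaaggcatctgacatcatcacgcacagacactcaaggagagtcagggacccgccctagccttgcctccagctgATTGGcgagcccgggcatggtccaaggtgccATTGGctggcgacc
Abca1 (chr4:53159896-53160145, minus strand): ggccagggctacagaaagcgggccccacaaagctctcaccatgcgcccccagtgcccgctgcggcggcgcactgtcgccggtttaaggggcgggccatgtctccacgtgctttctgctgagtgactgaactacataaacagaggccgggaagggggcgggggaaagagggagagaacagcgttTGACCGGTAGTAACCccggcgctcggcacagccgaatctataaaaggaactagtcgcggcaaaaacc
Fasn (chr11:120824548-120824797, minus strand): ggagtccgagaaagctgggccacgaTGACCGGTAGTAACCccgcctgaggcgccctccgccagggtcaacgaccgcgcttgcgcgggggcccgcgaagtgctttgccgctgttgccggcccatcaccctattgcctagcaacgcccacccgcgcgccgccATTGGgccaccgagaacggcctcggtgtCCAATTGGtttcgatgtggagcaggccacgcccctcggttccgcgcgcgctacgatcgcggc
Srebf1 (chr11:60210472-60210721, minus strand): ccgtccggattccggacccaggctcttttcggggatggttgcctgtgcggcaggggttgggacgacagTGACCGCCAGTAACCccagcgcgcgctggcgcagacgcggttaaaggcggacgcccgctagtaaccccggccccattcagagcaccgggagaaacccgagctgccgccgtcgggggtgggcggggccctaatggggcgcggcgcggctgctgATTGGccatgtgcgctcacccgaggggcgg

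In the Hmgcs1 window the sterol regulatory element began at −137 from the start, between CCAAT boxes that began at −176 and −45. Searched on both strands of the full windows of 300 bases, which run to 50 bases past the start, the sterol regulatory element was present in 1 of 28 lipid genes (3.57 percent), against 1.44 percent of all 27025 genes with a window. CCAAT was present in 21 of 28 (75.0 percent) against 41.1 percent of all genes. The E-box form TCACGTGA was present in 0 of 28 against 1.12 percent of all genes. Shorter E-box forms were not searched for, and CACGTG, for example, stands in the Abca1 window shown above. In Fasn, CCAAT and ATTGG overlapped by 2 bases, beginning at −62 and −59. The liver X receptor element was spelled out after these windows had been read, so its count is a description only. It was present in Abca1, Fasn and Srebf1, starting at −67, −225 and −182, and in 5 of 27025 genes in all. Of these 3 genes Abca1 was lower, Fasn was higher and Srebf1 did not pass the test. A match is not a bound site, and the absence of one says only that these letters are not in the window.

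In the first stage of sterol synthesis, from acetyl-CoA to farnesyl diphosphate, 4 of 7 enzymes were higher and 1 lower, with a median log2 change of 0.24. The shares over all tested genes were 10.4 percent higher and 8.21 percent lower. The summed level of the 7 enzymes was 134 to 136 scaled FPKM in lenvatinib and 113 in each DMSO library. Acat2, the cytosolic thiolase that joins acetyl-CoA units, had 13.6, 14.4 and 17.3 scaled FPKM in lenvatinib libraries, against 9.03, 8.99 and 9.04 in DMSO libraries. Every lenvatinib value lay above the DMSO values, which were nearly equal to each other. Acat2 changed by 0.68 on the log2 scale (SE 0.086, limma adjusted p = 0.000644), and the call was kept in all 16 alternative settings. Its close copy Acat3, named after its values were seen, stood at 0.455 ± 0.128 in lenvatinib and 0.804 ± 0.214 in DMSO libraries.

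Idi1, the isomerase that makes dimethylallyl diphosphate, had 22.9, 22.2 and 20.5 scaled FPKM in lenvatinib libraries, against 17.2, 15.96 and 15.1 in DMSO libraries. The groups did not overlap. Its log2 change was 0.42 (SE 0.066, limma adjusted p = 0.00217), with the call kept in all 16 settings, and 9.22 percent of its exon bases lie opposite another annotated transcript. Hmgcs1, which makes HMG-CoA, stood at 43.0, 38.7 and 40.8 scaled FPKM in lenvatinib libraries and at 32.4, 36.6 and 34.5 in DMSO libraries. The lowest lenvatinib library was just above the highest DMSO library. It changed by 0.24 on the log2 scale (SE 0.059, limma adjusted p = 0.0220), and 12.1 percent of its exon bases overlap an antisense transcript. Without known use of strand, the reads of such pairs cannot be told apart. Fdps, which makes farnesyl diphosphate, had 29.9, 35.1 and 29.0 scaled FPKM in lenvatinib libraries, against 26.5, 25.9 and 24.3 in DMSO libraries. Replicate 2 of lenvatinib was the highest, and the groups did not overlap. Its log2 change was 0.28 (SE 0.074, limma adjusted p = 0.0287). An annotated transcript unit on the same strand covers 26.7 percent of its exon bases, so its reads are uncertain. All overlaps given here were read from a GENCODE annotation of the build GRCm38. The partners of Idi1, Hmgcs1 and Fdps are not in the FPKM table, so whether the counting used them is not known.

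Pmvk, the kinase that adds the second phosphate to mevalonate, moved the other way, with 8.76, 9.90 and 10.1 scaled FPKM in lenvatinib libraries against 11.5, 11.6 and 13.01 in DMSO libraries. All lenvatinib values were below the DMSO values. Its log2 change was −0.30 (SE 0.079, limma adjusted p = 0.0299). The other 2 enzymes overlapped between groups: Mvd, the decarboxylase, averaged 12.6 ± 1.49 in lenvatinib and 11.3 ± 0.801 in DMSO libraries, and Mvk, mevalonate kinase, 4.09 ± 0.744 and 4.49 ± 0.769. The calls of Hmgcs1, Fdps and Pmvk were the less stable ones. Hmgcs1 lost its call in 7 of the 16 alternatives, among them those without lenvatinib replicate 1 or 3 or DMSO replicate 1 or 3, without a filter on low values and without trend or robust moderation, with a limma adjusted p of 0.000117 to 0.0762 over the alternatives. Fdps lost it without lenvatinib replicate 2 or DMSO replicate 2 or 3, without the filter and without trend or robust moderation (limma adjusted p of 0.0112 to 0.0966 over the alternatives). For Pmvk the losses came without lenvatinib replicate 1 or 2, DMSO replicate 2 or 3, or the filter (limma adjusted p of 0.00573 to 0.0971 over the alternatives).

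**Figure D1:**
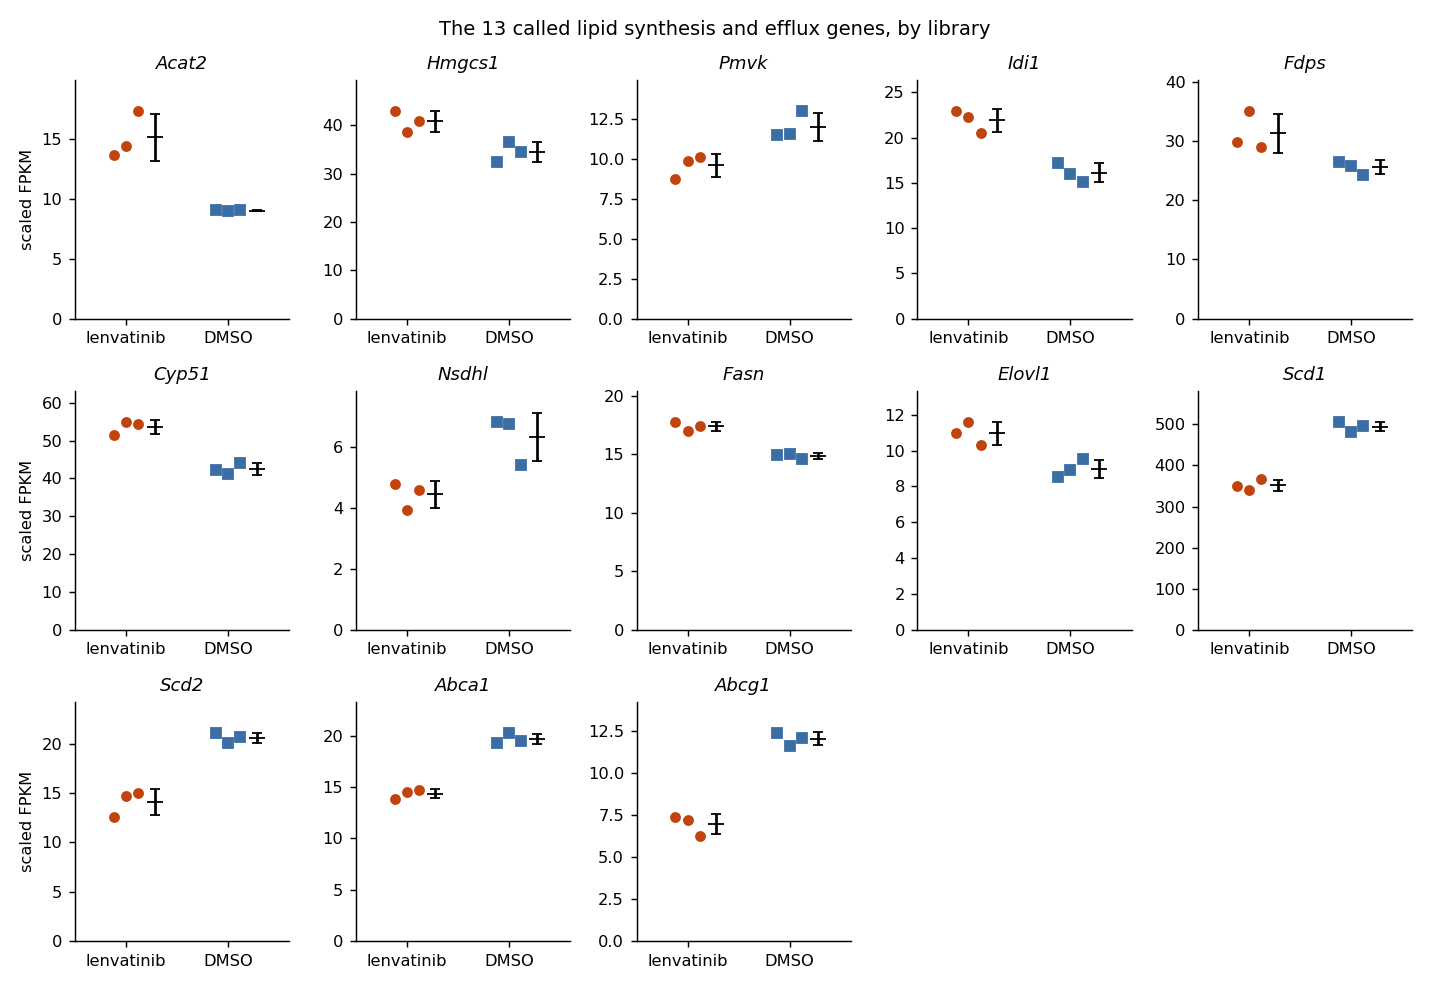
Scaled FPKM of the 13 called genes in each of the 3 lenvatinib libraries (circles, left) and 3 DMSO libraries (squares, right), with the mean and SD as a bar beside them. Acat2 lies between 13.6 and 17.3 in lenvatinib and near 9.0 in DMSO libraries, and Abcg1 between 6.26 and 7.41 in lenvatinib against 11.6 to 12.4 in DMSO libraries.

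In the second stage, from squalene to cholesterol, 1 of 11 enzymes was higher and 1 lower, with a median log2 change of 0.07. These counts were near the shares over all tested genes, 10.4 percent higher and 8.21 percent lower. Cyp51, the lanosterol demethylase, had 51.4, 54.9 and 54.5 scaled FPKM in lenvatinib libraries, against 42.1, 41.1 and 44.1 in DMSO libraries. The groups were clearly apart. Its log2 change was 0.33 (SE 0.045, limma adjusted p = 0.00103), kept in all 16 settings. Its exons overlap those of Akap9 on the other strand over 3.76 percent of their bases, and Akap9 had a log2 change of −0.15 (limma adjusted p = 0.331).

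Nsdhl, which removes a carboxyl group during the demethylation of sterols, had 4.80, 3.94 and 4.58 scaled FPKM in lenvatinib libraries, against 6.81, 6.73 and 5.41 in DMSO libraries. The groups did not overlap, and DMSO replicate 3 was nearest to lenvatinib. The log2 change was −0.43 (SE 0.11, limma adjusted p = 0.0224). This call was lost without lenvatinib replicate 2, DMSO replicate 1 or 2, or the filter on low values, with a limma adjusted p of 0.0124 to 0.0758 over the alternatives.

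The other 9 enzymes of this stage did not pass, and their log2 changes lay between −0.15 for Hsd17b7 and 0.16 for Ebp. Squalene epoxidase, Sqle, averaged 20.5 ± 2.58 scaled FPKM in lenvatinib and 19.7 ± 0.728 in DMSO libraries. Msmo1, the C4 methylsterol oxidase, stood at 48.4 ± 1.31 and 47.1 ± 2.53, and Sc5d, the lathosterol desaturase, at 18.1 ± 1.05 and 16.7 ± 0.798, lenvatinib first in each pair. Ebp, a sterol isomerase, had 9.66 ± 1.41 in lenvatinib and 8.48 ± 0.346 in DMSO libraries. Hsd17b7, a keto-reductase, was the only one of the 9 whose groups did not overlap, with 3.89 ± 0.308 in lenvatinib and 4.43 ± 0.265 in DMSO libraries (limma adjusted p = 0.290). Low levels per gene length were found for Dhcr7, the last reductase of one branch, with 4.81 ± 0.947 in lenvatinib and 4.81 ± 0.518 in DMSO libraries. Lanosterol synthase, Lss, had 3.69 ± 0.268 and 3.39 ± 0.278, squalene synthase, Fdft1, 2.99 ± 0.282 and 2.80 ± 0.297, and the sterol reductase Tm7sf2 2.12 ± 0.316 and 2.00 ± 0.687 in lenvatinib and DMSO libraries. Exons of Fdft1 overlap those of Ctsb on the other strand over 18.3 percent of their bases, and exons of Tm7sf2 overlap Vps51 over 12.1 percent, so both levels are uncertain. The gene length worked out from the FPKM steps was 10420 bases for Fdft1, with 694 to 1079 reads per library. For Ebp that length was 1743 bases, with 383 to 624 reads, so Fdft1 was not low in reads.

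Over the 18 enzymes listed here, levels per gene length differed far more than the change with lenvatinib. In lenvatinib libraries Cyp51 averaged 53.6 ± 1.90 scaled FPKM, Msmo1 48.4 ± 1.31 and Hmgcs1 40.8 ± 2.17, while Fdft1 and Tm7sf2 stayed near 3 or below. A low Tm7sf2 does not mean that its step was low. Lbr, another sterol reductase gene outside these 18, averaged 67.9 ± 2.09 in lenvatinib and 69.2 ± 3.61 in DMSO libraries. Summed over all 18 enzymes of sterol synthesis, the level was 303, 310 and 309 scaled FPKM in lenvatinib libraries, against 273, 273 and 267 in DMSO libraries. The sums did not overlap, and 5 of the 18 genes were called higher and 2 lower. Of all tested genes 10.4 percent were called higher and 8.21 percent lower.

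The SREBP control genes did not pass the test. Srebf2 averaged 90.9 ± 1.40 scaled FPKM in lenvatinib and 93.6 ± 2.65 in DMSO libraries, and its values overlapped. Insig1, which holds the SREBP carrier in the endoplasmic reticulum and is itself an SREBP target, had 116.4, 117.0 and 117.5 scaled FPKM in lenvatinib libraries, against 121.6, 123.3 and 123.3 in DMSO libraries. The groups did not overlap, with a percent difference of −4.71 and −0.07 on the log2 scale (SE 0.028, limma adjusted p = 0.117). Stard4, a sterol carrier, stood at 14.5 ± 0.168 in lenvatinib and 14.6 ± 0.387 in DMSO libraries.

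Srebf1 was closest to the threshold, with 13.6, 14.6 and 12.9 scaled FPKM in lenvatinib libraries against 15.2, 15.9 and 17.1 in DMSO libraries. The groups did not overlap, and the log2 change was −0.22 (SE 0.068, limma adjusted p = 0.0550). It passed in 4 of the 16 alternatives, those with a mean filter of 5, scaling to the sum of FPKM, quantile normalization and limma-voom, over a range of limma adjusted p from 0.00758 to 0.163.

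Among the fatty acid synthesis genes 1 of 3 was higher, where 10.4 percent of all tested genes were called higher. Fasn, fatty acid synthase, had 17.8, 17.0 and 17.4 scaled FPKM in lenvatinib libraries, against 14.9, 15.1 and 14.6 in DMSO libraries. Both groups were tight and apart. The log2 change was 0.21 (SE 0.053, limma adjusted p = 0.0213), lost in 5 of the 16 alternatives, among them those without lenvatinib replicate 1 or 3 or DMSO replicate 1 or 3 (limma adjusted p of 7.93e-05 to 0.0691 over the alternatives). Acly, which supplies cytosolic acetyl-CoA, averaged 22.3 ± 0.831 in lenvatinib and 22.9 ± 0.829 in DMSO libraries. Acaca, acetyl-CoA carboxylase, had 3.80 ± 0.0654 and 4.13 ± 0.025 in lenvatinib and DMSO libraries, with a log2 change of −0.10 (limma adjusted p = 0.463), and its groups did not overlap.

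**Figure D2:**
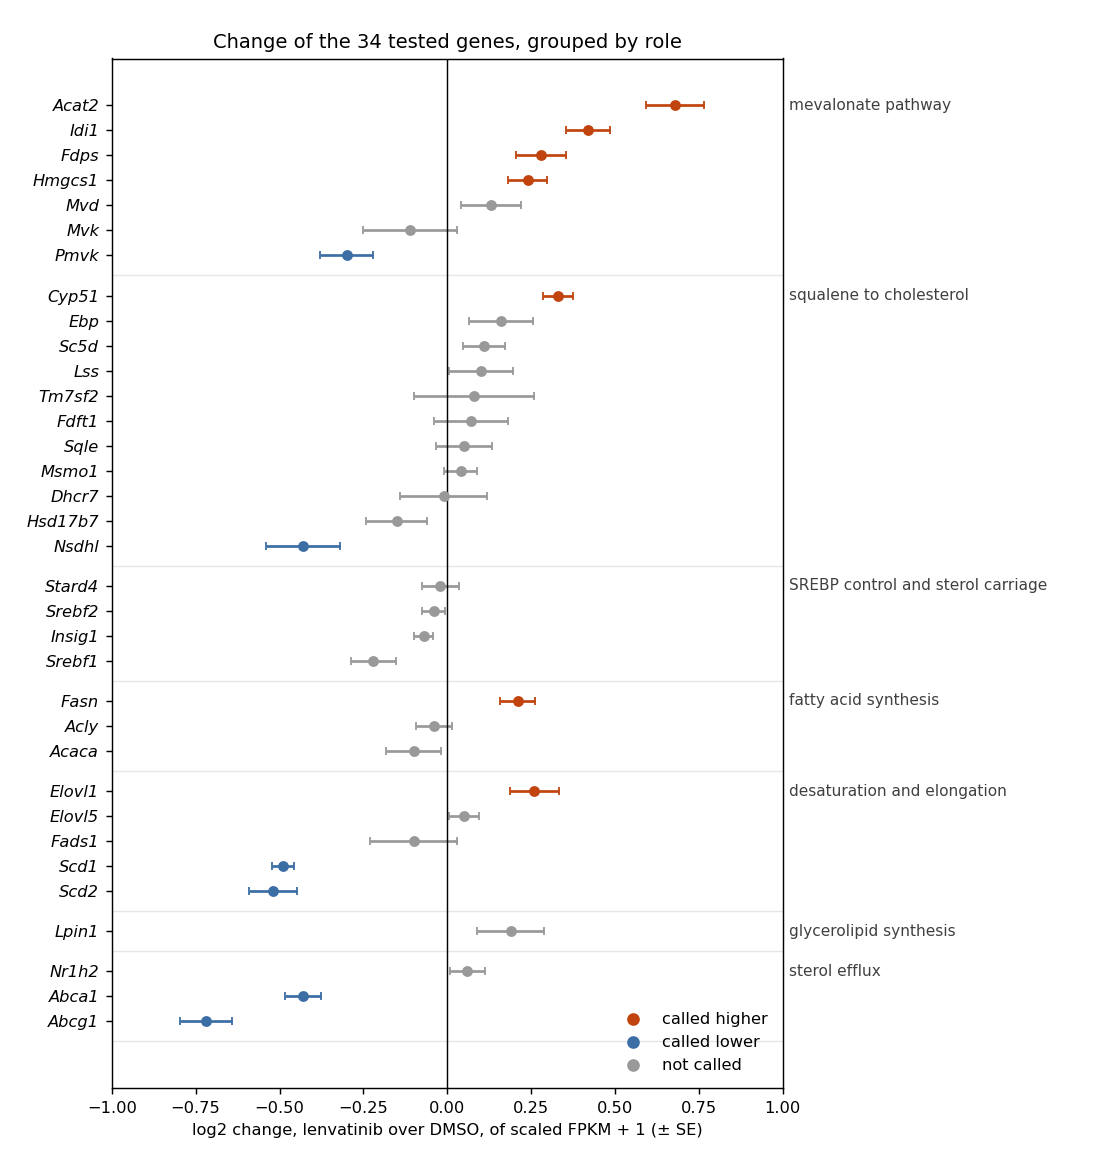
Log2 change, lenvatinib over DMSO, of scaled FPKM + 1 for the 34 tested genes by role, with bars for the SE and colour for the call. The changes run from −0.72 for Abcg1 to 0.68 for Acat2, and the calls below 0 include both desaturases Scd1 and Scd2 and both transporters Abca1 and Abcg1.

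Both stearoyl-CoA desaturases, which put the first double bond into saturated fatty acids, were lower. Scd1 was the most abundant of the 36 genes, with 349, 341 and 367 scaled FPKM in lenvatinib libraries, against 506, 482 and 495 in DMSO libraries. The groups were far apart relative to their spread. On the log2 scale the change was −0.49 (SE 0.033, limma adjusted p = 1.92e-05). Its share of the summed FPKM of all 36 genes was 31.0, 30.4 and 31.8 percent in lenvatinib libraries, against 39.7, 38.9 and 39.3 percent in DMSO libraries. Scd2, at a much lower level, had 12.6, 14.7 and 15.0 scaled FPKM in lenvatinib libraries, against 21.1, 20.1 and 20.7 in DMSO libraries. The values were again well apart. Scd2 changed by −0.52 on the log2 scale (SE 0.071, limma adjusted p = 0.00101), and the percent difference was −31.5 for Scd2 and −28.8 for Scd1. Both calls were kept in all 16 settings. The 2 genes are close copies whose reads the counting could split, while their relatives Scd3 and Scd4 had group means of at most 0.112 scaled FPKM.

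Elongases and the other desaturases showed no common direction. Elovl1, an elongase of very long saturated fatty acids, had 10.97, 11.6 and 10.3 scaled FPKM in lenvatinib libraries, against 8.53, 8.92 and 9.52 in DMSO libraries. The groups did not overlap, and the log2 change was 0.26 (SE 0.072, limma adjusted p = 0.0357). The call was lost in 7 of the 16 alternatives, among them those without lenvatinib replicate 1 or 2, DMSO replicate 1 or 2 or the filter and the one with scaling to the sum of FPKM (limma adjusted p of 0.00928 to 0.113 over the alternatives). Elovl5, which extends polyunsaturated fatty acids, averaged 93.6 ± 5.38 in lenvatinib and 90.5 ± 2.17 in DMSO libraries. Fads1, the delta-5 desaturase, had 1.16 ± 0.18 in lenvatinib and 1.33 ± 0.243 in DMSO libraries.

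The 2 genes that were not tested were in this group. Elovl6, which extends palmitate to stearate, had 0.933, 1.62 and 1.28 scaled FPKM in lenvatinib libraries, against 0.942, 0.433 and 0.902 in DMSO libraries, and the groups overlapped. Fads2, the delta-6 desaturase, had 0.723, 0.922 and 1.504 in lenvatinib libraries against 1.51, 0.897 and 0.722 in DMSO libraries, with no separation. The group as a whole, 7 genes, summed to 470, 459 and 495 scaled FPKM in lenvatinib libraries, against 630, 602 and 620 in DMSO libraries, most of it Scd1. Lpin1, a phosphatidate phosphatase of glycerolipid synthesis, averaged 2.51 ± 0.19 in lenvatinib and 2.08 ± 0.139 in DMSO libraries, a change of 0.19 on the log2 scale (SE 0.10, limma adjusted p = 0.239).

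Of the 3 sterol efflux genes 2 were lower, where 8.21 percent of all tested genes were called lower. Abcg1, a transporter that passes cholesterol to HDL, had 7.41, 7.22 and 6.26 scaled FPKM in lenvatinib libraries, against 12.4, 11.6 and 12.1 in DMSO libraries. The values were far apart. Abcg1 changed by −0.72 on the log2 scale (SE 0.077, limma adjusted p = 0.000255), a percent difference of −42.2. Abca1, which loads cholesterol onto lipid-poor apolipoproteins, had 13.9, 14.5 and 14.7 scaled FPKM in lenvatinib libraries, against 19.3, 20.3 and 19.5 in DMSO libraries. Again the groups stood well apart. Its log2 change was −0.43 (SE 0.054, limma adjusted p = 0.000642), and both calls were kept in all 16 settings. Nr1h2, which encodes liver X receptor beta, averaged 49.2 ± 2.50 in lenvatinib and 47.0 ± 2.26 in DMSO libraries, a change of 0.06 on the log2 scale (SE 0.052, limma adjusted p = 0.450).

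The falls of these lipid genes can be read beside those of the B cell identity genes, whose median log2 change was −0.24, with a range of −0.41 to 0.05. Abcg1 at −0.72, Scd2 at −0.52 and Scd1 at −0.49 lay below that range, and Pmvk at −0.30 lay inside it. Nsdhl and Abca1, at −0.43 each, lay just below the lower end of that range. With a library left out their changes reached −0.36 for Nsdhl and −0.40 for Abca1. The difference between the lipid and the identity genes was not tested.

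**Figure D3:**
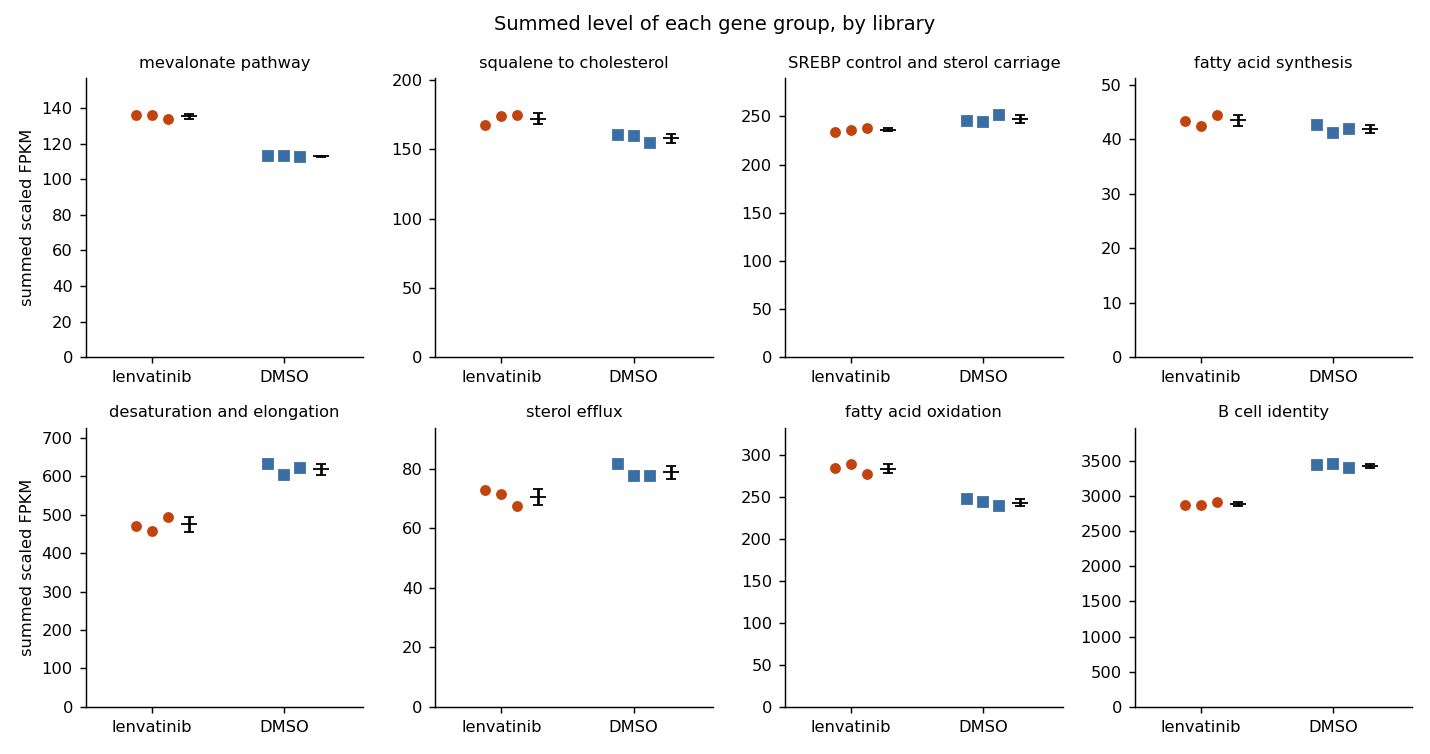
Summed scaled FPKM of the genes of each group in each lenvatinib library (circles, left) and each DMSO library (squares, right), with the mean and SD beside them. The mevalonate sums lie at 134 to 136 in lenvatinib and 113 in DMSO libraries, and those of desaturation and elongation at 459 to 495 in lenvatinib against 602 to 630 in DMSO libraries.

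Further genes of these pathways were read from other lists. Of all tested genes, 10.4 percent were called higher and 8.21 percent lower, for comparison with each list. In a list of 21 further sterol genes 20 were tested, with 0 higher and 1 lower and a median log2 change of −0.02. The gene that fell was Nceh1, a cholesteryl ester hydrolase, with 4.47 ± 0.409 in lenvatinib and 5.97 ± 0.168 in DMSO libraries (log2 change −0.35, SE 0.085, limma adjusted p = 0.0199, and 0.00485 to 0.0645 over the alternatives, lost without lenvatinib replicate 2 or 3 or DMSO replicate 1 or 2). The next by p did not pass: Gramd1b, a sterol transfer protein, had 1.13 ± 0.0572 and 0.654 ± 0.0247, Mbtps2, the site-2 protease of SREBP, 2.77 ± 0.194 and 3.71 ± 0.505, and Acat1, the mitochondrial thiolase, 11.8 ± 0.652 and 10.5 ± 0.382 in lenvatinib and DMSO libraries. Of these, Gramd1b passed with limma-voom or without trend or robust moderation, and Mbtps2 with limma-voom.

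Of 39 further fatty acid and glycerolipid genes 38 were in the table and 23 tested, with 1 higher, 2 lower and a median log2 change of −0.12. Dgat1, which makes triglycerides, had 85.6 ± 2.07 scaled FPKM in lenvatinib and 71.2 ± 3.60 in DMSO libraries (log2 change 0.26, SE 0.043, limma adjusted p = 0.00289), a call kept in all 16 settings. The 2 that fell were Cbr4, a reductase of mitochondrial fatty acid synthesis, with 2.81 ± 0.521 in lenvatinib and 4.03 ± 0.418 in DMSO libraries, and the acyl-CoA synthetase Acsl3, with 8.41 ± 0.268 and 10.5 ± 1.24. Each lost its call in 9 alternatives, over limma adjusted p of 0.0231 to 0.208 for Cbr4 and 0.00756 to 0.127 for Acsl3. For Cbr4 leaving out any library other than lenvatinib replicate 1 ended the call, and for Acsl3 any other than DMSO replicate 3. Agpat4, an acyltransferase, had 4.47 ± 0.582 in lenvatinib and 3.21 ± 0.521 in DMSO libraries (limma adjusted p = 0.0601), and passed with limma-voom and without DMSO replicate 3.

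Of 15 further genes of liver X receptor function and efflux 14 were in the table and 9 tested, with 1 higher, 2 lower and a median log2 change of −0.02. Apoe, an apolipoprotein that accepts cholesterol and is abundant in macrophages, had 160 ± 2.44 in lenvatinib and 140 ± 6.13 in DMSO libraries (log2 change 0.19, SE 0.036, limma adjusted p = 0.00583, and 2.03e-05 to 0.0614 over the alternatives), and lost its call without trend or robust moderation. Mylip, a ubiquitin ligase that liver X receptor induces, had 13.3 ± 0.388 in lenvatinib and 15.5 ± 0.737 in DMSO libraries. The corepressor Ncor1 had 22.7 ± 0.867 and 25.9 ± 0.719, with a log2 change of −0.18 against −0.21 for Mylip. Both calls, at limma adjusted p of 0.0380 for Mylip and 0.0358 for Ncor1, were lost in 10 of 16 alternatives, with each of the 6 libraries left out among them. Rxrb, a partner of liver X receptor, had 32.9 ± 0.66 in lenvatinib and 28.5 ± 3.03 in DMSO libraries (limma adjusted p = 0.0708), and passed without DMSO replicate 3 and with limma-voom. The receptor gene Nr1h3, named after its values were seen, stood at 0.218 ± 0.181 in lenvatinib and 0.362 ± 0.128 in DMSO libraries, below the level tested.

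Fatty acid oxidation, the opposite process, had 7 of 20 tested genes higher and 0 lower, with a median log2 change of 0.17. The shares over all tested genes were 10.4 percent higher and 8.21 percent lower. This list too was chosen with earlier results of these data known. Slc25a20, which carries acylcarnitines into mitochondria, had 15.7 ± 1.81 scaled FPKM in lenvatinib and 9.97 ± 0.633 in DMSO libraries (log2 change 0.60, SE 0.089, limma adjusted p = 0.00148). Acads, the short-chain acyl-CoA dehydrogenase, had 8.13 ± 0.439 and 5.71 ± 0.542, and Etfb, which takes up the electrons of these dehydrogenases, 27.0 ± 0.881 and 19.9 ± 2.44 in lenvatinib and DMSO libraries. These 3 calls were kept in all 16 settings. Acadl, the long-chain dehydrogenase, had 37.4 ± 1.89 in lenvatinib and 31.2 ± 2.38 in DMSO libraries (log2 change 0.25, SE 0.063, limma adjusted p = 0.0220), and its call was lost in 6 alternatives, among them leaving out lenvatinib replicate 2 or 3 or DMSO replicate 1 or 3 (limma adjusted p of 0.00503 to 0.0794 over the alternatives). The summed level of the list was 278 to 289 scaled FPKM in lenvatinib libraries against 239 to 247 in DMSO libraries. The markers of T cells, NK cells and epithelium given above were higher in the same lenvatinib libraries, and their part in this was not tested.

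**Figure D4:**
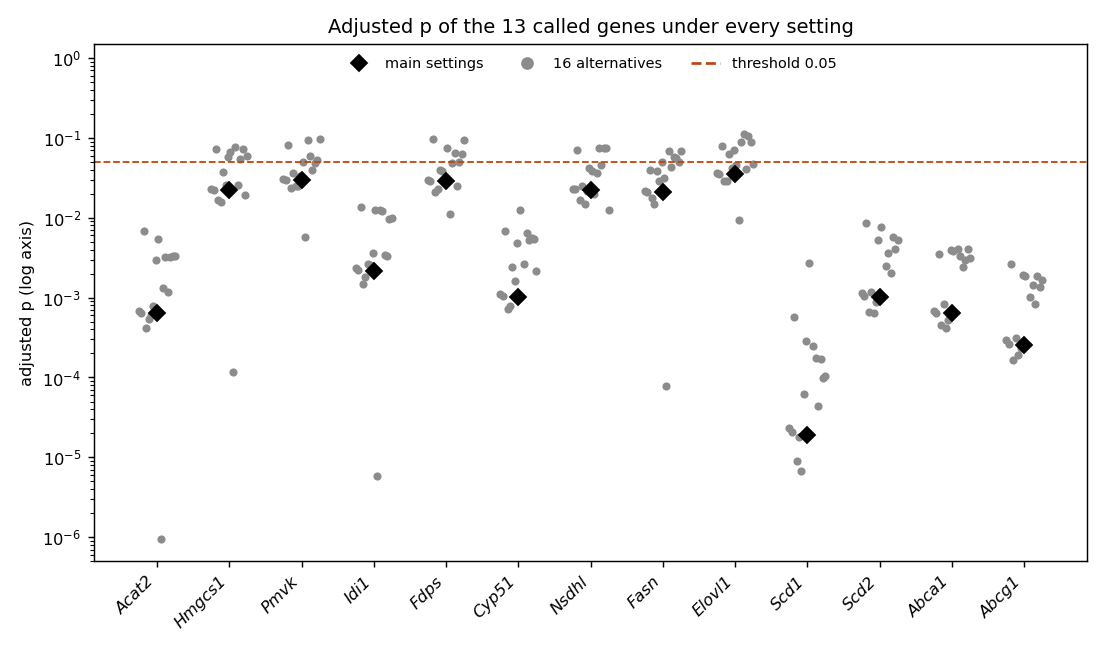
Limma adjusted p, on a log axis, of the 13 called genes in the main settings (diamonds) and in 16 alternative settings (small circles), with the threshold of 0.05 as a dashed line. For Acat2, Idi1, Cyp51, Scd1, Scd2, Abca1 and Abcg1 every circle lies below the line, with a largest value of 0.0137 for Idi1.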

How the data were processed

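RNA libraries of sorted B cells were prepared with the VAHTS Universal V10 reagents, per the labels' protocols. The authors deposited FPKM values per gene. Reads were counted with HTSeq on GRCm39, per the submitters' processing notes. The aligner, annotation and use of strand are not given in the sources used here. FPKM is not a count, so log2(scaled FPKM + 1) was fitted with limma 3.58.1 (R 4.3.3), with trend and robust moderation, treatment as the only term, two-sided tests and Benjamini-Hochberg adjustment over all 9937 genes with at least 1 scaled FPKM in at least 3 libraries. Scaling used median-of-ratios factors of 0.992 to 1.009. The pseudocount makes the changes of low genes look smaller. Whole reads (tolerance 1e-06) were recovered for 9933 tested genes and used for depth and for limma-voom. The fit and the recovery were checked on simulated data. Each called member is given in full, and up to 4 genes with the smallest p per further list. Members and lists were chosen with earlier results of these data known.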

Additional observations from a re-analysis of the deposited data

How the results depend on the processing

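The 16 alternatives changed the pseudocount (0.1 or 0.5), the filter (none, or a mean of 5), the scaling, the moderation, the replicate term or the data (limma-voom on recovered reads), or left out each of the 6 libraries. Of the 13 called genes 7 kept their call in all 16, and the direction of all 13 held in each. The number called higher, 7 in the main settings, was 4 without a filter and 4 to 5 with a library left out, and the number called lower, 6 in the main settings, 4 to 6. Over all genes, those called higher numbered 673 to 827 with a library left out, lowest at 680 without lenvatinib replicate 1 and 673 without lenvatinib replicate 2, against 1038. Among genes that were not called, Stard4 and Dhcr7 turned to 0.00 with FPKM as deposited. With a library left out the log2 change of Dhcr7 ranged from −0.13 to 0.10, of Msmo1 from −0.01 to 0.07, of Sqle from −0.04 to 0.14 and of Tm7sf2 from −0.12 to 0.21. The cause was not tested. Same-numbered libraries did not deviate together, with correlations of −0.007, 0.006 and −0.005 over genes. This cannot show whether they were matched, for example by day or batch, which the labels do not say. With the replicate block 4 lipid genes were called higher, since Hmgcs1, Fasn and Elovl1 lost their calls. Depth was at least 54 reads in a library for a tested lipid gene, and 3 libraries a group limit what can be called.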
